A study of Mus musculus with 8 samples.

Results

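Knockdown of Ddb1 was compared directly with knockdown of Sox2 in NG4 cells, a mouse embryonic stem cell line. The comparison uses 4 of the 8 arrays in the series, chosen by their titles, with 2 siDdb1 arrays set against 2 siSox2 arrays across 18193 genes. The cells of the siDdb1 group received small interfering RNA (siRNA) against Ddb1, those of the siSox2 group received siRNA against Sox2, and those of the siNonTarget group (2 arrays) received a non-targeting siRNA. In every group the siRNA was delivered by reverse transfection, in which cells are added to the siRNA mixture as they are plated, and RNA was taken 48 h later. The siNonTarget arrays are used to tell which of the knockdowns lay away from the control level, and, with the 2 siPsmd14 arrays of the series, they enter the estimate of the spread. The genotype of the line beyond its name, the number of siRNAs per target and whether replicates were separate cultures are not stated in the labels. P-values therefore measure how far these arrays scatter, and that scatter may be technical. All levels below are log2 of the array intensity of a probe set, and all differences are siDdb1 minus siSox2 on that log2 scale unless another pair is named.

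Sox2 is a transcription factor that binds DNA together with Oct4, the product of Pou5f1, and maintains pluripotency. Loss of Sox2 in mouse embryonic stem cells is known to turn on genes of the trophoblast, the lineage that forms the placenta. Ddb1 is the subunit of CUL4 ubiquitin ligases that joins the cullin scaffold to substrate receptors called DCAFs. These ligases act in nucleotide excision repair, in the control of replication licensing and in the turnover of cell-cycle regulators.

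The arrays of the 3 groups had median intensities between 27.37 and 28.83. On the first principal component, which held 32.5% of the variance over all 8 arrays, the siSox2 arrays lay at 35 and 59.2 and the other 6 between -26.3 and -2.3. The 8 markers of embryonic stem cells, among them Pou5f1, Nanog and Zfp42, lay between 11.08 and 14.09 in siDdb1 arrays and between 11.10 and 14.08 in siSox2 arrays. Their summed level was 15.69 and 15.74 in siDdb1, 15.66 and 15.56 in siSox2, and 15.78 and 15.88 in siNonTarget. None of the 8 passed the threshold between the knockdowns. Of the 4 markers that define feeder fibroblasts, the collagen genes Col1a1 and Col3a1 averaged 3.63 and 3.32 in siDdb1 and 4.01 and 3.39 in siSox2, below every array's median. Col1a2 averaged 5.15 in siDdb1 and 5.57 in siSox2, and Thy1 averaged 6.20 in siDdb1 and 4.70 in siSox2, so that Thy1 alone of the 4 passed (difference 1.50, limma adjusted p = 0.00135). The number of arrays limits the precision, and a difference with the median SE of 0.151 had a 95% interval of 0.342 on either side.

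The targeted transcripts were read first. Ddb1 read 9.67 and 10.73 in siDdb1 arrays, 12.04 and 12.19 in siSox2 arrays, and 11.88 and 11.81 in siNonTarget arrays. Both siDdb1 arrays lay below all others, and their linear signals were 18.3% and 38.2% of the siSox2 mean. The difference was -1.92 (SE 0.28, n = 2 arrays per group, limma adjusted p = 0.00888), and the adjusted p was 0.0766 without siSox2 replicate 2. Against siNonTarget, Ddb1 differed by -1.65 in siDdb1 and did not pass (limma adjusted p = 0.147). Sox2 read 12.36 and 12.36 in siDdb1, 12.10 and 11.84 in siSox2, and 12.23 and 12.47 in siNonTarget. The siSox2 arrays held the lowest values of the 3 groups, at 83.3% and 69.5% of the siDdb1 mean in linear signal, but the difference of 0.39 (SE 0.16) did not pass (limma adjusted p = 0.297). Pou5f1 and Nanog, core pluripotency factors, differed by 0.20 (95% interval -0.07 to 0.47, limma adjusted p = 0.539) and 0.17 (-0.23 to 0.58, limma adjusted p = 0.769).

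Of the 18193 genes, 842 passed a limma adjusted p of 0.05 between siDdb1 and siSox2, which is 4.63% of those tested (1387 of 45037 probe sets, 3.08%). In siDdb1, 369 were higher (2.03%) and 473 lower (2.6%) than in siSox2, and 466 of the 842 differed at least 2-fold. Over all genes the median difference was 0.02 and the median absolute difference 0.157. The siDdb1 and siSox2 arrays did not overlap for any of the 842 genes, against 50.2% of all genes tested. The calls were made on these same arrays, so this is no further support for them. The count rests on few arrays. It was 198 without siDdb1 replicate 1, 204 without siSox2 replicate 2, 543 without siDdb1 replicate 2, 563 without either siNonTarget array and 488 with the 4 arrays of the comparison fitted alone, and 189, 195, 432, 553 and 452 of those genes were among the 842. None of the 842 changed sign, but these fits could not reverse a sign. Where arrays do not overlap, leaving out an array keeps the direction, and the siNonTarget arrays do not enter the difference.

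Each of the 842 genes was then placed by where its siNonTarget mean lay on the line from the siSox2 mean to the siDdb1 mean, cut into 3 equal stretches. This is a description without a test. For 548 genes (65.1%) the siNonTarget mean lay in the stretch nearest siDdb1 or beyond it, so that siSox2 stood farther from the control, and 380 of these were lower and 168 higher in siDdb1 than in siSox2. For 185 genes (22%) it lay in the middle stretch, so that the knockdowns stood on opposite sides of the control, with 113 higher and 72 lower in siDdb1. For 109 genes (12.9%) it lay in the stretch nearest siSox2 or beyond it, so that siDdb1 stood farther from the control, with 88 higher and 21 lower in siDdb1. Against siNonTarget itself, 8 genes (0.044% of those tested) passed in siDdb1 and 778 (4.28%) in siSox2. These comparisons share the siNonTarget arrays and are given only side by side.

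**Figure D1:**
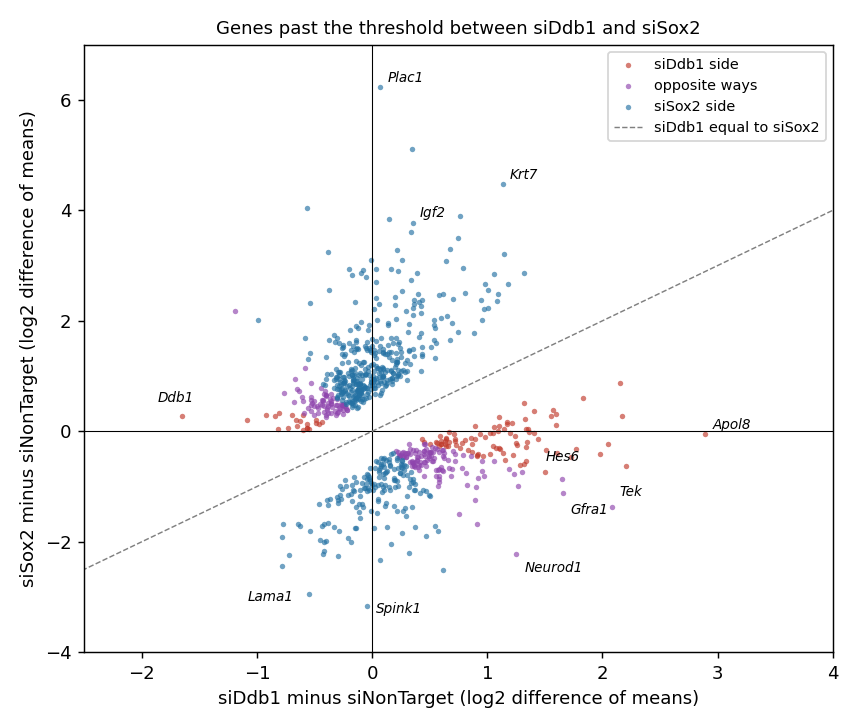
Each point is 1 of the 842 genes past the threshold between siDdb1 and siSox2, with its siDdb1 minus siNonTarget difference on the x axis and its siSox2 minus siNonTarget difference on the y axis (log2 differences of means of 2 arrays). Colours give the 3 placements (siDdb1 side where siDdb1 stood farther from the control, siSox2 side where siSox2 did), and the dashed line marks equal levels in siDdb1 and siSox2. Plac1, Igf2 and Krt7 lie high on the y axis near 0 to 1.13 on the x axis, Spink1 and Lama1 lie low, Apol8 and Hes6 lie to the right, and Neurod1, Tek and Gfra1 lie to the lower right.

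The genes with the largest excess in siDdb1 over siSox2 included a proneural regulator and receptors or ligands of neural and vascular signalling. Neurod1, a transcription factor of neuronal differentiation, read 9.75 and 9.56 in siDdb1, 6.29 and 6.08 in siSox2, and 8.25 and 8.56 in siNonTarget. Its difference was 3.47 (SE 0.17, limma adjusted p = 0.000124), and the siNonTarget arrays lay between the knockdowns without overlapping either. Tek, the receptor kinase for angiopoietins, read 8.79 and 7.71 in siDdb1, 4.87 and 4.72 in siSox2, and 6.0 and 6.33 in siNonTarget, a difference of 3.45 (SE 0.32, limma adjusted p = 0.00138). Gfra1, a co-receptor for the growth factor GDNF, read 7.38 and 7.57 in siDdb1, 4.62 and 4.8 in siSox2, and 5.65 and 5.98 in siNonTarget. Gfra1 was higher in siDdb1 than in siSox2 by 2.77 (limma adjusted p = 0.000311). It also passed in both comparisons with siNonTarget, at 1.66 in siDdb1 (adjusted p = 0.0448) and -1.11 in siSox2 (adjusted p = 0.0135). Its other probe sets, which averaged 3.64 and 3.58 in siDdb1 and lay below the array medians, gave 0.31 and 0.49 and did not pass. Against siNonTarget, Neurod1 passed in siSox2 (limma adjusted p = 0.000503) but not in siDdb1 (0.0853). Tek passed in neither, at 0.0627 in siSox2 and 0.113 in siDdb1.

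Vegfc, a ligand that drives lymphatic vessel growth, and Zfp365, a zinc finger gene, were placed in the middle stretch like Neurod1, Tek and Gfra1. Vegfc read 9.32 and 8.83 in siDdb1, 6.57 and 6.39 in siSox2, and 7.89 and 8.42 in siNonTarget (difference 2.59, SE 0.21), and Zfp365 differed by 2.51 (SE 0.28). Against siNonTarget, Vegfc passed in siSox2 (limma adjusted p = 0.00476) but not in siDdb1 (0.26). Zfp365 passed in neither, at 0.171 in siSox2 and 0.15 in siDdb1. For Dpp4, Spink1 and Ccnd2 the siNonTarget levels lay closer to those in siDdb1 than to those in siSox2. The cell-surface peptidase gene Dpp4 read 7.74 and 7.92 in siDdb1, 5.24 and 4.16 in siSox2, and 7.29 and 7.14 in siNonTarget, a difference of 3.13 (SE 0.29, limma adjusted p = 0.00137). Spink1, an inhibitor of trypsin, read 9.44 and 9.52 in siDdb1, 6.75 and 5.97 in siSox2, and 9.34 and 9.70 in siNonTarget (difference 3.12, SE 0.35). The siSox2 arrays alone stood low for Dpp4 and Spink1. Ccnd2, the gene of cyclin D2, which drives entry into the cell cycle, read 8.32 and 7.99 in siDdb1, 5.40 and 5.86 in siSox2, and 7.76 and 7.92 in siNonTarget. Its difference was 2.53 (SE 0.22, limma adjusted p = 0.00122).

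Plac1, 3830417A13Rik and Lcp1 had the largest deficits in siDdb1 relative to siSox2, and for most of the 10 genes with the largest deficits siDdb1 lay near siNonTarget. Plac1, a placenta-enriched gene on the X chromosome, read 4.59 and 4.20 in siDdb1, 10.36 and 10.76 in siSox2, and 4.58 and 4.08 in siNonTarget. The siDdb1 and siNonTarget arrays lay below the array medians and the siSox2 arrays far above them, a difference of -6.16 (SE 0.21, 71.5-fold, limma adjusted p = 1.22e-05). Lcp1, which encodes the actin-bundling protein L-plastin, read 3.28 and 3.36 in siDdb1, 7.98 and 7.89 in siSox2, and 4.25 and 3.53 in siNonTarget (difference -4.62, SE 0.21). Igf2, an imprinted growth factor gene, read 9.88 and 9.26 in siDdb1, 12.67 and 13.32 in siSox2, and 9.39 and 9.04 in siNonTarget (difference -3.42, SE 0.26). The homeobox gene Irx3 differed by -3.69, the choline dehydrogenase gene Chdh by -3.62, the RIKEN transcript 3830417A13Rik by -4.77 and Pparg, a nuclear receptor of placental and fat development, by -3.14. For these 4 genes siDdb1 minus siNonTarget lay between -0.38 and 0.35.

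Krt7, Rhox6 and Dkk1, also among the 10 largest deficits, differed from that pattern or between replicates. The epithelial keratin gene Krt7 read 7.24 and 6.40 in siDdb1, 9.94 and 10.38 in siSox2, and 5.95 and 5.42 in siNonTarget, so both knockdowns lay above the control and siSox2 farther (difference -3.34, SE 0.30, limma adjusted p = 0.00122). Rhox6, an X-linked homeobox gene expressed in placenta and germ cells, read 7.30 and 8.02 in siDdb1, 11.06 and 10.99 in siSox2, and 9.62 and 8.08 in siNonTarget (difference -3.37, SE 0.42). Dkk1, a secreted inhibitor of Wnt signalling, read 3.82 and 4.0 in siDdb1, 6.11 and 8.23 in siSox2, and 3.40 and 3.73 in siNonTarget. The siSox2 replicates of Dkk1 lay far apart, and the difference of -3.26 (SE 0.52, limma adjusted p = 0.0136) had an adjusted p of 0.0931 without siDdb1 replicate 1 and 0.0531 without siDdb1 replicate 2. Another probe set of Dkk1, near the floor of the arrays, gave -0.70 and did not pass.

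**Figure D2:**
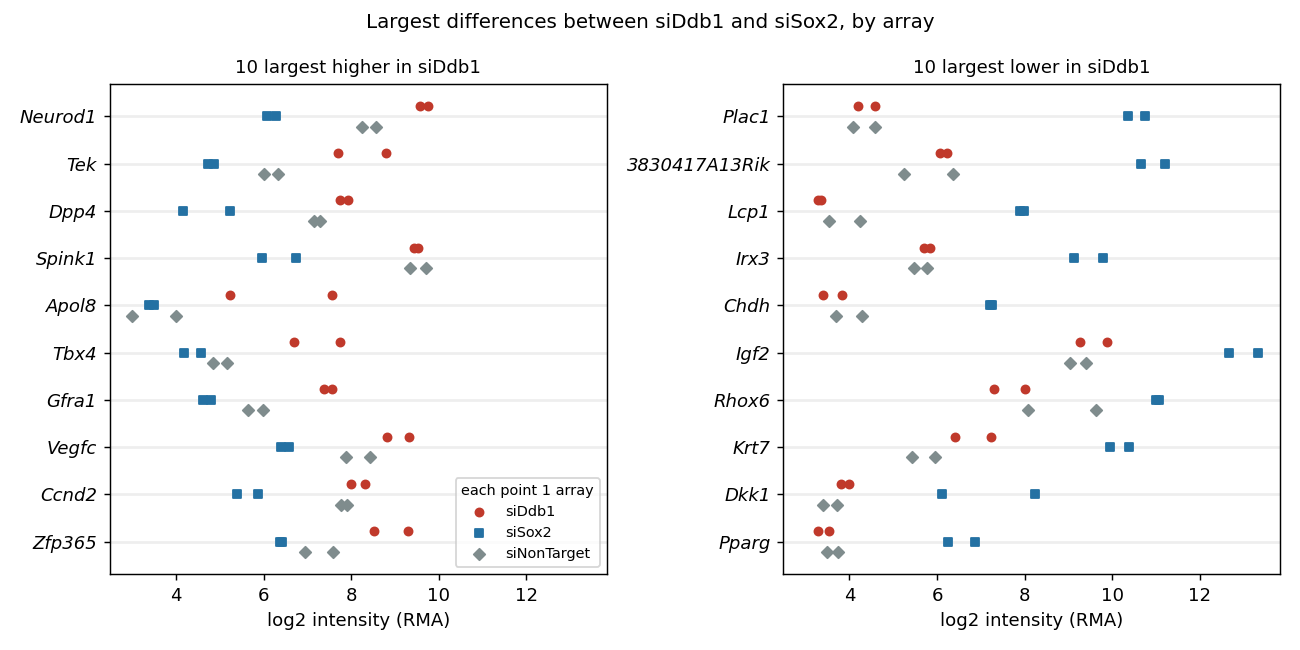
The log2 level of the genes with the 10 largest differences in each direction is plotted for each array (siDdb1, siSox2 and siNonTarget, 2 points each). Plac1 shows the widest gap, at 4.59 and 4.20 in siDdb1 against 10.36 and 10.76 in siSox2, and Apol8 and Dkk1 show replicates far apart.

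Genes placed nearest siSox2, for which siDdb1 stood away from the control, were led by Apol8 and Tbx4 on the higher side. Against siNonTarget itself neither passed in siDdb1, at limma adjusted p of 0.231 and 0.0836. Apol8, of the apolipoprotein L family, read 7.57 and 5.23 in siDdb1, 3.39 and 3.50 in siSox2, and 3.0 and 4.01 in siNonTarget. Its siDdb1 replicates lay far apart, and the difference of 2.95 (SE 0.61, limma adjusted p = 0.0372) did not pass when any of 7 arrays was left out, with adjusted p values between 0.0555 and 0.189. Tbx4, a T-box transcription factor gene of limb and allantois development, read 7.75 and 6.69 in siDdb1, 4.18 and 4.58 in siSox2, and 5.17 and 4.86 in siNonTarget (difference 2.84, SE 0.30). A dimmer probe set of Tbx4 gave 0.60 (limma adjusted p = 0.0774). The gluconeogenic enzyme gene Fbp1 differed by 2.39, the neuronal adhesion gene Nrcam by 2.28 and the insulin receptor substrate gene Irs4 by 2.24. Against siNonTarget, Fbp1 and Nrcam did not pass in siDdb1 (limma adjusted p of 0.223 and 0.14) and Irs4 did (0.0448). Of these, Fbp1 had adjusted p values between 0.0526 and 0.104 without siDdb1 replicate 1, siSox2 replicate 1 or siSox2 replicate 2, and Nrcam 0.0588 without siSox2 replicate 2. Irs4 stayed past the threshold in every such fit, though its other probe set, near the floor, gave -0.18 and did not pass.

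On the lower side of the same placement the differences were smaller. Ddb1 itself came first at -1.92, followed by the actin-binding regulator gene Abitram at -1.28, the meprin peptidase gene Mep1b at -1.22, the metal transporter gene Slc11a1 at -1.13 and the calpain gene Capn5 at -1.11. Abitram read 4.58 and 5.18 in siDdb1, 6.06 and 6.26 in siSox2, and 5.95 and 5.97 in siNonTarget. Each of these genes lay lower on both siDdb1 arrays than on the siSox2 and siNonTarget arrays. Against siNonTarget none of them passed in siDdb1. The limma adjusted p was 0.147 for Ddb1, 0.229 for Abitram, 0.293 for Mep1b, 0.346 for Slc11a1 and 0.224 for Capn5. Without siDdb1 replicate 1 adjusted p was 0.117 for Abitram, 0.131 for Mep1b, 0.184 for Slc11a1 and 0.0701 for Capn5. Without siSox2 replicate 2 it was 0.153 for Abitram, 0.215 for Slc11a1 and 0.064 for Capn5, and without siSox2 replicate 1 it was 0.104 for Mep1b, 0.0685 for Slc11a1 and 0.0527 for Capn5. Mep1b had 0.102 without siDdb1 replicate 2, and Slc11a1 0.0549 without either siNonTarget array.

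Among genes of the middle stretch, the largest deficits in siDdb1 after Rhox6 were Gm32960 (-1.73), the scaffold gene Kank4 (-1.62), the cell adhesion gene Kirrel (-1.46) and the chloride transporter gene Clcn4 (-1.42). Kank4 read 6.24 and 6.57 in siDdb1, 7.93 and 8.13 in siSox2, and 7.12 and 7.03 in siNonTarget (SE 0.18, limma adjusted p = 0.00302). The siNonTarget arrays of Kank4 lay between the knockdowns without overlapping either. Against siNonTarget, Kank4 passed in siSox2 (limma adjusted p = 0.0274) but not in siDdb1 (0.336). Gm32960, Kirrel and Clcn4 passed in neither. Kank4 stayed past the threshold with each array left out, whereas adjusted p reached 0.0694 for Gm32960, 0.131 for Kirrel and 0.108 for Clcn4 without siSox2 replicate 2. Without siDdb1 replicate 1 it was 0.0585 for Gm32960, 0.0842 for Kirrel and 0.0669 for Clcn4, and without siSox2 replicate 1 it was 0.0642 for Clcn4.

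Promoter sequences are shown for 4 genes that differed and whose only listed promoter holds a match to a letter string of the SOX and OCT factors. For Tek, Dpp4 and Dkk1 the capitals mark the SOX core (ACAATG or ACAAAG, either strand), and for Cdx2, a regulator of trophoblast fate, they mark the octamer ATGCAAAT, which Oct4 binds. The sequences are RefSeq's 250 bases before and 50 after the gene start on GRCm38.p6, at chr4:94739039-94739338 on the plus strand for Tek, chr2:62412182-62412481 on the minus strand for Dpp4, chr19:30549447-30549746 on the minus strand for Dkk1 and chr5:147307200-147307499 on the minus strand for Cdx2.
Tek: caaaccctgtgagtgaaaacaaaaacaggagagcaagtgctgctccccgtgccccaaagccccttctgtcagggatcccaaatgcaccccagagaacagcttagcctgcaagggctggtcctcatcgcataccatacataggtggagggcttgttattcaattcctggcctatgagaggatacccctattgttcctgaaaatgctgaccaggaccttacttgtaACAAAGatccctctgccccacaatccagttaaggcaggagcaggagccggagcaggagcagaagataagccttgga
Dpp4: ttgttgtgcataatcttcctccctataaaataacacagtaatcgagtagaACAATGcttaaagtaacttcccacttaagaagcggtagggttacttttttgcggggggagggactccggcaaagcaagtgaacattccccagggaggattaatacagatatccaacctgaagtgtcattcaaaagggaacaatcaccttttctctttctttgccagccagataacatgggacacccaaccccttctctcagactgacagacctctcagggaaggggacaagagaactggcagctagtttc
Dkk1: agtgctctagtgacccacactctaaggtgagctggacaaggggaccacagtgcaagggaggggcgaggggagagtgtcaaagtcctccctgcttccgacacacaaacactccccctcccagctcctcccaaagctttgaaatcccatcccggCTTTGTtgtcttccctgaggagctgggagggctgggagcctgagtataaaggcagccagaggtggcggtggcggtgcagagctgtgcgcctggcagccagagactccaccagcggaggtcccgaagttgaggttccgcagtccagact
Cdx2: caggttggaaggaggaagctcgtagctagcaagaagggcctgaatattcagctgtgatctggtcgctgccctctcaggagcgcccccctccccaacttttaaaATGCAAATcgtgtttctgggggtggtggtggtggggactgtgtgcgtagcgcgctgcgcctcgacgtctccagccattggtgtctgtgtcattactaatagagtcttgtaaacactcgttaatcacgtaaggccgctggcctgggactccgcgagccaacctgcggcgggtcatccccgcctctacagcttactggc
Of the 18193 genes, 14452 matched RefSeq's promoter table by symbol. The SOX core was present in a promoter of 28.7% of 286 matched genes higher in siDdb1 and 20.4% of 372 matched genes lower in siDdb1, and in 26.4% of all 14452. Over genes with 1 promoter in the table the shares were 22.3% of 220 higher genes, 16.5% of 284 lower genes and 23.2% of all 11791, so that the higher genes lay above all genes in the first count and below them in the second. The octamer was searched on both strands, and ACAATG and the octamer can share the letters ATG. It was present in 13 of the higher genes (4.55%), 8 of the lower genes (2.15%) and 243 of all (1.68%). A match is a string of letters in this window and not a bound site.

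Most of the measured trophoblast genes were lower in siDdb1 than in siSox2. Of 29 members, 19 were lower and 1 higher, with a median difference of -1.31, against 2.6% lower, 2.03% higher and a median of 0.02 over all genes. The medians against siNonTarget were 0.10 in siDdb1 and 1.69 in siSox2. In RNA from whole cultures, fewer cells of a type and less RNA per cell cannot be told apart. Besides Plac1 and Krt7, the members with the smallest p were the kinase gene Nrk (-3.12) and Gata2 (-2.49), a transcription factor of trophoblast giant cells. Gata2 read 6.93 and 6.76 in siDdb1, 9.14 and 9.54 in siSox2, and 7.24 and 6.75 in siNonTarget. Leaving out single arrays moved the count of lower members between 14 and 20.

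The 6 genes taken to define trophoblast did not move as a block. Cdx2 read 5.68 and 5.68 in siDdb1, 6.73 and 6.87 in siSox2, and 5.10 and 5.19 in siNonTarget (difference -1.12, limma adjusted p = 0.00359). Gata3, a partner of Cdx2 in trophectoderm, differed by -1.92 and Ascl2, a regulator of the spongiotrophoblast, by -2.75. Hand1, a regulator of giant cells, differed by -0.42 and did not pass, and Elf5, a trophoblast stem cell factor, stayed near the floor at 3.59 and 3.63 in siDdb1 and 3.61 and 3.54 in siSox2. Eomes was the single member of the list that was higher in siDdb1. This T-box factor of trophoblast stem cells, also known in mesendoderm, read 7.67 and 7.04 in siDdb1, 6.21 and 6.40 in siSox2, and 6.01 and 5.88 in siNonTarget. Its difference was 1.04 (SE 0.20, limma adjusted p = 0.0267), and its adjusted p was 0.116 without siDdb1 replicate 1, 0.111 and 0.117 without siSox2 replicates 1 and 2, and 0.059 without either siNonTarget array. Eomes was named after its values were seen. The summed level of the 6 genes was 9.07 and 8.64 in siDdb1, 10.08 and 10.71 in siSox2, and 8.11 and 8.21 in siNonTarget. Sin3b, a general co-repressor that the list also holds, is counted among the 19 lower (-0.80) and was named after its values were seen. Its call ended with any of 6 arrays left out, at adjusted p between 0.0645 and 0.241.

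**Figure D3:**
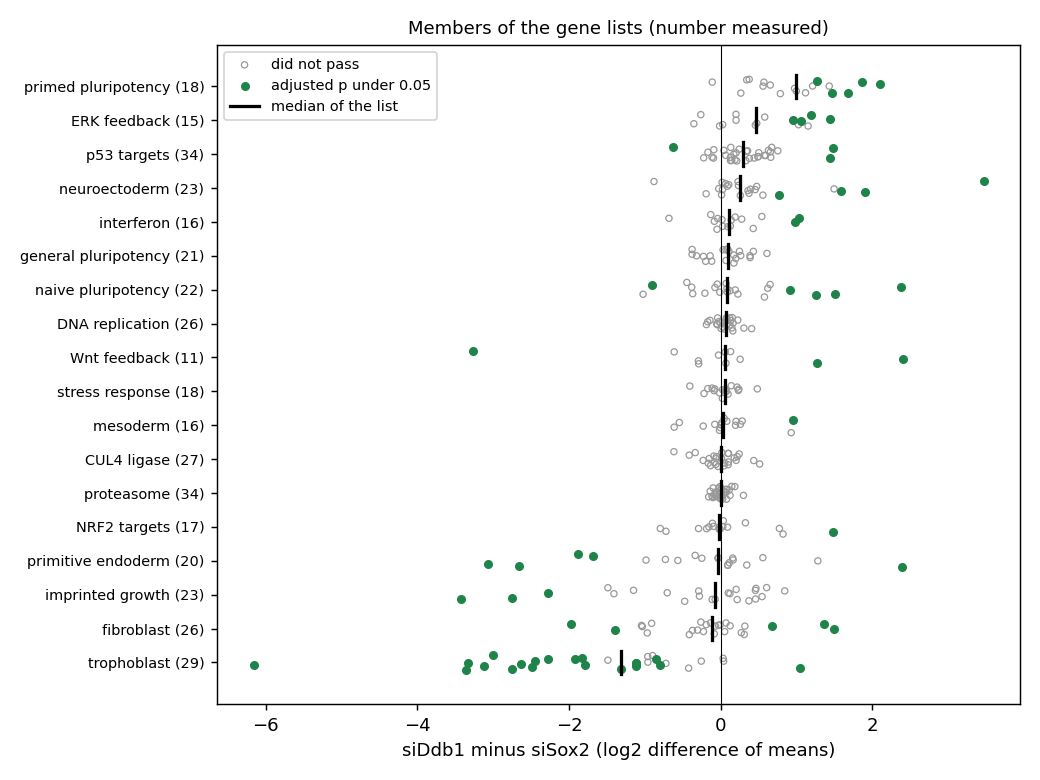
Each point is a measured gene of a list, with its siDdb1 minus siSox2 log2 difference on the x axis and the lists down the page. The trophoblast list lies mostly left of 0, with a median of -1.31, and the primed pluripotency list right of 0, with a median of 0.99, while proteasome and CUL4 ligase genes lie between -0.62 and 0.51.

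Of 18 measured genes of primed pluripotency, the state of the epiblast about to differentiate, 5 were higher in siDdb1 than in siSox2 and none lower, while 13 did not pass. Over all genes 2.03% were higher. The list's median difference was 0.99, with 17 members above 0. The medians against siNonTarget were 0.43 in siDdb1 and -0.61 in siSox2. Otx2, a homeobox gene that drives the primed state, read 9.88 and 9.96 in siDdb1, 8.07 and 7.58 in siSox2, and 9.44 and 9.67 in siNonTarget (difference 2.10, SE 0.30, limma adjusted p = 0.00866). Tcf15, a bHLH factor that primes cells for differentiation, differed by 1.47, the neural cadherin gene Cdh2 by 1.68, the Wnt effector gene Lef1 by 1.28 and the growth factor gene Fgf15 by 1.87. The siDdb1 arrays lay above the siSox2 arrays for these 5 genes, but the groups did not overlap for any of the 842 called genes. Tcf15 and Cdh2 stayed past the threshold with each array left out. Otx2 had an adjusted p of 0.062 without siDdb1 replicate 1 and 0.0789 without siSox2 replicate 2, and Lef1 0.103 and 0.125, and also 0.0532 without siDdb1 replicate 2. Fgf15, named after its values were seen, had 0.0884 without siDdb1 replicate 1, 0.121 without siDdb1 replicate 2, 0.187 without siSox2 replicate 2 and 0.0585 without either siNonTarget array. The list held 2 higher members without siDdb1 replicate 1 or siSox2 replicate 2, 3 without siDdb1 replicate 2, 4 without either siNonTarget array and 9 without either siPsmd14 array, which enter the estimate of the spread.

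Of 22 naive pluripotency genes, 4 were higher and 1 lower in siDdb1, against 2.03% and 2.6% of all genes, and the median was 0.08. Against siNonTarget the medians were -0.46 in siDdb1 and -0.50 in siSox2. Gbx2, a homeobox gene that supports self-renewal, read 9.02 and 9.03 in siDdb1, 6.85 and 6.45 in siSox2, and 8.38 and 8.54 in siNonTarget (difference 2.38, SE 0.19, limma adjusted p = 0.000843). The lysosomal mannosidase gene Manba differed by 1.51, Nr0b1, a nuclear receptor of the pluripotency network, by 1.25, and the junction gene Jam2 by 0.91. For Manba, Nr0b1 and Jam2 both knockdowns lay below siNonTarget and siSox2 lay farther. The lower member was Tfcp2l1, a transcription factor of the naive state, at 9.83 and 9.75 in siDdb1, 10.49 and 10.90 in siSox2, and 10.29 and 10.35 in siNonTarget (difference -0.90, limma adjusted p = 0.0236). Tfcp2l1 was named after its values were seen, as were Klf4, Esrrb and Fgf4, further naive genes that lay below siNonTarget in both knockdowns. Klf4 averaged 10.43 in siDdb1, 10.31 in siSox2 and 11.10 in siNonTarget, and its direct difference was 0.12 (95% interval -0.31 to 0.55). Esrrb and Fgf4 had direct differences of 0.09 (-0.19 to 0.36) and 0.08 (-0.39 to 0.55). Without siDdb1 replicate 1 or siSox2 replicate 2 the list held 2 higher and 0 lower members, with adjusted p for Nr0b1 of 0.0502 and 0.0563 and for Jam2 of 0.103 and 0.15, and Jam2 had 0.0827 without siDdb1 replicate 2. Tfcp2l1 had 0.109 without either siDdb1 array, 0.177 without siSox2 replicate 2 and 0.0539 without either siNonTarget array. The median of the list was 0.01 without siDdb1 replicate 1 and 0.14 without siDdb1 replicate 2. The 21 general pluripotency genes held no call in limma, 4 had an unadjusted p under 0.05, and the smallest p belonged to the Polycomb gene Phc1 (0.61, adjusted p = 0.0599).

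Of 23 measured neuroectoderm genes, 4 were higher in siDdb1 and none lower, against 2.03% and 2.6% of all genes, with a median of 0.26. Hes6, which promotes neuronal differentiation, read 9.60 and 9.33 in siDdb1, 7.87 and 7.89 in siSox2, and 8.16 and 7.89 in siNonTarget (difference 1.58, SE 0.15, limma adjusted p = 0.00142), and another probe set of it passed at 1.53. Only the siDdb1 arrays stood away from the others for Hes6, while Neurod1 lay above the control in siDdb1 and below it in siSox2. Dll1, a ligand of Notch receptors, read 7.68 and 7.48 in siDdb1, 5.48 and 5.86 in siSox2, and 5.96 and 6.54 in siNonTarget (difference 1.91, SE 0.30). Fabp7, a lipid-binding protein gene of radial glia, differed by 0.76 at levels under every array's median. Adjusted p for Dll1 was 0.093, 0.0556 and 0.0564 without siDdb1 replicate 1, siSox2 replicate 1 and siSox2 replicate 2. Fabp7 had 0.103, 0.0809 and 0.123 without siDdb1 replicate 2, siSox2 replicate 1 and siSox2 replicate 2, and the list then held 2 higher members without siSox2 replicate 2. In the mesoderm list of 16 genes the receptor gene Kdr was higher (0.96, limma adjusted p = 0.00654) and none was lower. Kdr had an adjusted p of 0.0615 without siDdb1 replicate 1 and 0.0588 without siSox2 replicate 2.

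Of 20 primitive endoderm genes, 4 were lower and 1 higher in siDdb1, against 2.6% and 2.03% of all genes. The list's median was -0.03 and lay between -0.09 and 0.00 with single arrays left out. The collagen IV chains Col4a1 (-2.67) and Col4a2 (-3.06), which form basement membranes, were lower in siDdb1, and siDdb1 minus siNonTarget was 0.03 and 0.22. Col4a1 read 7.99 and 7.75 in siDdb1, 10.24 and 10.83 in siSox2, and 7.96 and 7.72 in siNonTarget. The laminin chain gene Lama1, of the same basement membranes, ran the other way, at 7.06 and 6.84 in siDdb1, 4.75 and 4.37 in siSox2, and 7.27 and 7.73 in siNonTarget (difference 2.39, SE 0.19, limma adjusted p = 0.000875). Foxa2, an endoderm transcription factor gene, was lower in siDdb1 at -1.89, and the endocytic adaptor gene Dab2, named after its values were seen, at -1.68, with an adjusted p of 0.0769 without siDdb1 replicate 1 and 0.0563 without siDdb1 replicate 2. Of 23 imprinted growth genes, 3 were lower and none higher: Igf2, the placental growth restrainer Phlda2 (-2.27) and Ascl2. Phlda2 read 10.14 and 10.79 in siDdb1, 12.65 and 12.83 in siSox2, and 10.97 and 11.12 in siNonTarget. The count of lower imprinted genes was 6 without siSox2 replicate 1, and the median of the list was -0.07, against 0.07 without siSox2 replicate 2.

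Of 15 genes on the list of ERK kinase pathway feedback, 4 were higher in siDdb1 and none lower, with a median of 0.47. FGF signalling switches these genes on, and some of them, such as the phosphatase genes, limit it. The shares over all genes were 2.03% higher and 2.6% lower. Dusp6, an ERK phosphatase gene, read 10.65 and 10.55 in siDdb1, 9.19 and 9.14 in siSox2, and 9.65 and 9.33 in siNonTarget (difference 1.44, SE 0.17, limma adjusted p = 0.00404). The phosphatase gene Dusp4 read 8.81 and 8.56 in siDdb1, 7.38 and 7.88 in siSox2, and 7.81 and 7.52 in siNonTarget (difference 1.05). For both phosphatases the siDdb1 arrays stood above the other 4, but siDdb1 did not pass against siNonTarget (limma adjusted p of 0.115 for Dusp6 and 0.172 for Dusp4). Etv4, an ETS factor gene downstream of FGF, instead lay low in siSox2, at 7.86 and 7.88 in siDdb1, 6.96 and 6.87 in siSox2, and 8.16 and 7.94 in siNonTarget (difference 0.96). The AP-1 subunit gene Fosl1 differed by 1.19. Dimmer probe sets of Etv4 and Fosl1 gave 0.18 and 0.84 and did not pass (limma adjusted p of 0.818 and 0.0904). Dusp6 stayed past the threshold with each array left out, and the list held 1 higher member without siDdb1 replicate 1 and 2 without either siSox2 array. Adjusted p was 0.0523 for Etv4, 0.14 for Dusp4 and 0.169 for Fosl1 without siDdb1 replicate 1. It was 0.0791 for Dusp4 and 0.118 for Fosl1 without siSox2 replicate 1, and 0.0683 for both Etv4 and Fosl1 without siSox2 replicate 2.

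Of 11 Wnt feedback genes, Notum and Lef1 were higher in siDdb1 and Dkk1 was lower, against 2.03% higher and 2.6% lower over all genes. The list's median was 0.06 and lay between -0.02 and 0.14 with single arrays left out. Notum, which encodes an enzyme that removes the lipid from Wnt ligands, read 8.26 and 8.06 in siDdb1, 6.29 and 5.23 in siSox2, and 8.02 and 8.16 in siNonTarget (difference 2.40, SE 0.33, limma adjusted p = 0.00789). The siSox2 arrays alone stood low for Notum, and its adjusted p was 0.0669 without siDdb1 replicate 1, when none of the 3 genes passed.

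Of 34 measured p53 targets, 2 were higher and 1 lower in siDdb1 than in siSox2. At 2.03% higher and 2.6% lower over all genes, a list of this size would also hold few calls. The median direct difference was 0.29, with 28 above 0, and it was 0.09 without siDdb1 replicate 1. Against siNonTarget the medians were 0.59 in siDdb1 and 0.20 in siSox2, where 0 and 1 of the 34 passed in limma. Cd80, a co-stimulatory ligand gene, read 6.71 and 6.02 in siDdb1, 4.68 and 5.16 in siSox2, and 4.83 and 5.09 in siNonTarget (difference 1.45, limma adjusted p = 0.0153). Other probe sets of Cd80 gave 1.50, 1.30 and 0.00, and the first of these passed. Ddit4l, an inhibitor of mTOR signalling, differed by 1.49 and Xpc, a damage sensor of nucleotide excision repair, by -0.63. For these 3 genes the siDdb1 arrays stood away from the control and siSox2 lay near it, though siDdb1 did not pass against siNonTarget. Each lost its call without siDdb1 replicate 1, at adjusted p of 0.0854 for Cd80, 0.237 for Ddit4l and 0.208 for Xpc, and without siSox2 replicate 1, at 0.0656, 0.201 and 0.0905. Ddit4l and Xpc also had 0.126 and 0.279 without siSox2 replicate 2, 0.0667 and 0.0603 without either siNonTarget array, and Xpc had 0.112 without siDdb1 replicate 2 and Ddit4l 0.0636 without either siPsmd14 array.

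Cdkn1a and Mdm2 are p53 targets named after their values were seen. Cdkn1a, the gene of the cell-cycle inhibitor p21, read 9.87 and 9.25 in siDdb1, 9.36 and 9.99 in siSox2, and 8.41 and 8.45 in siNonTarget. The knockdown arrays overlapped, all 4 lay above the control, and the direct difference was -0.11 (95% interval -0.67 to 0.44). Mdm2, the ligase gene that restrains p53, read 11.26 and 10.92 in siDdb1, 10.61 and 10.57 in siSox2, and 10.12 and 10.05 in siNonTarget (difference 0.50, 95% interval 0.17 to 0.84), which did not pass (limma adjusted p = 0.128).

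The listed genes of the ubiquitin machinery around Ddb1 held no call. Over all genes only 4.63% passed in limma, so that lists of this size would hold few calls. An unadjusted limma p under 0.05 was found for 3461 of the 18193 genes. None of 27 CUL4 ligase genes passed in limma, 4 had an unadjusted p under 0.05, and the median was 0.01. The scaffold genes Cul4a and Cul4b differed by -0.23 (95% interval -0.55 to 0.09) and -0.06 (-0.36 to 0.24), and the smallest p belonged to the receptor gene Dcaf10 (-0.62, adjusted p = 0.107). Cul4a and Cul4b are given because they are the scaffolds to which Ddb1 binds. None of 34 proteasome genes passed in limma, with 1 at an unadjusted p under 0.05, differences between -0.16 and 0.30, and Psme4 at the smallest p (0.30, adjusted p = 0.322). None of 26 DNA replication genes passed, with 2 at an unadjusted p under 0.05. Cdt1, the licensing factor that CUL4 ligases degrade as a protein, differed by 0.16 (95% interval -0.15 to 0.47), and cyclin E gene Ccne1 had the smallest p (0.41, adjusted p = 0.172). None of 18 stress response genes passed in limma either, with 2 at an unadjusted p under 0.05 and Herpud1, of endoplasmic reticulum stress, at the smallest p (0.48, adjusted p = 0.171). These lists held no call with any array left out.

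Of 17 targets of the oxidative stress factor NRF2, the epoxide hydrolase gene Ephx1 was higher in siDdb1 (1.49, limma adjusted p = 0.0236), with 0.143, 0.0579 and 0.171 without siDdb1 replicate 1, siSox2 replicate 1 and siSox2 replicate 2. Without siSox2 replicate 1 the list held 2 higher members, Ephx1 not among them. Of 16 interferon-response genes, Ifit2 (0.97) and the membrane protein gene Ifitm3 (1.03) were higher. The counts of both lists stand beside 2.03% higher and 2.6% lower over all genes. Ifitm3 read 12.66 and 12.42 in siDdb1, 11.67 and 11.36 in siSox2, and 12.35 and 12.58 in siNonTarget. With siSox2 replicate 2 left out the differences of Ifit2 and Ifitm3 were 0.85 and 0.87. Ifit2 differed by 0.84 without siDdb1 replicate 2, and Ifitm3 by 0.90 without siDdb1 replicate 1.

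Of 26 fibroblast genes, 3 were higher and 2 lower in siDdb1, against 2.03% and 2.6% of all genes. The list's median was -0.11 and lay between -0.25 and -0.02 with single arrays left out. Their summed level was 13.25 and 13.33 in siDdb1, 13.97 and 14.36 in siSox2, and 13.15 and 13.12 in siNonTarget. The galectin gene Lgals1, the brightest of the list in siSox2, read 11.21 and 11.18 in siDdb1, 13.06 and 13.28 in siSox2, and 11.42 and 10.88 in siNonTarget (difference -1.98). The surface protein gene Thy1 (1.50), the matrix protease gene Mmp2 (1.36) and the bHLH factor gene Twist1 (0.68) ran the other way. The list held 1 lower member without either array of siDdb1, siNonTarget or siPsmd14 and 3 without siSox2 replicate 1. The call of Twist1 ended with any of 6 arrays left out, at adjusted p between 0.0554 and 0.201. The part of fibroblast cells in the differences of other genes was not tested, and of the defining markers Col1a1, Col1a2 and Col3a1 did not pass.

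The replicates of a knockdown differed in how far genes lay from the other knockdown. Among the 88 genes that were higher in siDdb1 and placed nearest siSox2, siDdb1 replicate 1 lay farther from the siSox2 mean than replicate 2 in 78 (88.6%), with a median gap of 0.41. Among the 21 lower genes of that placement it did so in 13 (61.9%), with a median gap of 0.10, and over all 109 in 91 (83.5%). The share was 52.0% of the 548 genes for which siSox2 stood farther from the control and 51.8% of all genes. Among those 548 genes, siSox2 replicate 2 lay farther from the siDdb1 mean than replicate 1 in 465 (84.9%), against 45.0% of the 109 genes for which siDdb1 stood farther and 55.8% of all genes. The arrays that lay farther were also those with the lower level of the targeted transcript, Ddb1 at 9.67 on siDdb1 replicate 1 and 10.73 on replicate 2, and Sox2 at 11.84 on siSox2 replicate 2 and 12.10 on replicate 1. The probe sets for 18S ribosomal RNA averaged 11.70 and 12.68 in siDdb1, 11.11 and 11.85 in siSox2, and 11.18 and 11.61 in siNonTarget, so that they also differed between replicates. The part of either measure in the replicate difference was not tested.

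**Figure D4:**
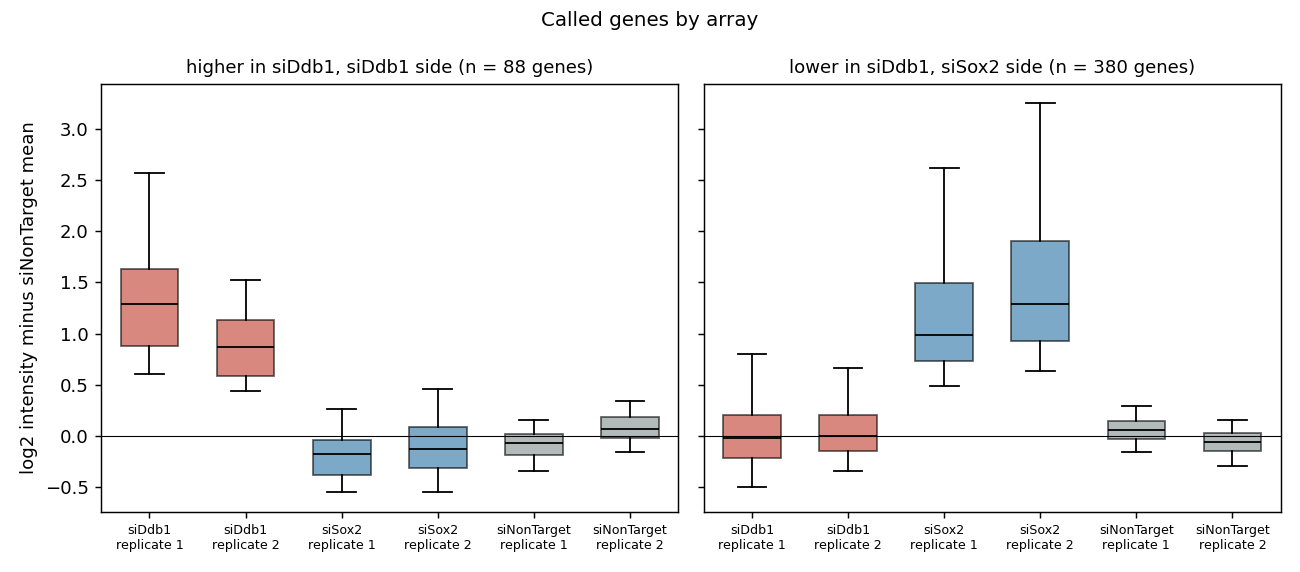
Boxes give the quartiles and median of the log2 level of called genes on each array minus the siNonTarget mean, with whiskers at percentiles 5 and 95, for the 88 genes at left and the 380 at right. The siDdb1 replicate 1 array lies farther from the control than replicate 2 for the genes higher in siDdb1 and placed nearest siSox2, with a median gap of 0.41, and siSox2 replicate 2 lies farther than replicate 1 for the lower genes for which siSox2 stood farther, with a median gap of 0.31.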

How the data were processed

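The submitters amplified total RNA, made biotin-labelled cDNA and hybridised it to Affymetrix arrays. Per the submitters' processing notes, RMA was used to make the deposited intensity values, and no settings are stated. They are linear probe set values, and log2 was taken before any test. If the arrays were set to a common distribution, as RMA usually does, a change in total RNA per cell is hidden. No scanner files or detection calls were used.

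Of 45101 probe sets, 64 controls were left out and 45037 tested. GEO's platform annotation gave 34945 of them 1 symbol, and a gene was read by the brightest of these over 8 arrays, giving 18193 genes. Groups followed the titles. All 8 arrays, with the siPsmd14 group (2 arrays), were fitted together with lmFit and eBayes (limma 3.58.1, R 4.3.3), with Benjamini-Hochberg adjustment over 45037 probe sets and a threshold of 0.05. Scripts were tested on simulated data. No replicate block was used in the main fit. Deviations of same-numbered replicates from their group means correlated between -0.217 and 0.242. The value was 0.242 for siSox2 with siNonTarget, and -0.217 and -0.213 for siDdb1 with siSox2 and siNonTarget. Whether replicates of different groups were handled together was not tested.

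Always named were Sox2, Ddb1, Pou5f1 and Nanog. Further named genes were the 10 largest differences each way, the 5 largest each way nearest siSox2 and in the middle stretch, and up to 4 called members of each of 18 lists by p, or 1 where none passed. The members and lists were chosen with earlier results of these data known. Of 48 other probe sets of the 67 named genes past the threshold, 27 passed in the same direction, 0 in the opposite direction and 21 did not pass. Alternatives were a replicate block, other normalizations and filters, another gene rule, stricter thresholds and leaving out each array.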

Additional observations from a re-analysis of the deposited data

How the results depend on the processing

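The main count of 842 genes (1387 probe sets) stayed within 1.5 times with the dimmer probe sets left out (788 genes, 1250 probe sets), quantile normalization (848, 1401), array medians subtracted (890, 1478), eBayes with trend and robust (839, 1371) and 1 probe set per gene tested (1055 genes). The replicate block gave 822 genes and 1389 probe sets. A crossed replicate pairing, added after seeing the data, gave 890 genes and 1471 probe sets. Fitting the 4 arrays alone, with fewer residual degrees of freedom, gave 488 genes and 789 probe sets. An adjusted p of 0.01 gave 237 and 383, and requiring 2-fold gave 466 and 737. With each array left out in turn there were 198 to 897 genes and 319 to 1486 probe sets. Lowest were siDdb1 replicate 1 and siSox2 replicate 2 (204 genes, 321 probe sets), and leaving out either siNonTarget array gave 563 genes and 913 probe sets. Why these arrays count most was not tested. No called gene changed sign in any of these fits, and leaving out an array could not change a sign, as the groups did not overlap. Among values of named genes under the alternatives, 106 lost the call and 3 gained it. Dim probe sets near the floor may understate fold changes, and without detection calls no bound could be set.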

Other observations

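Some gene families were counted after their values were seen, and members such as Krt7, Dll1 and Hes6 were counted in the lists too. Genes were called by the limma adjusted p of 0.05, at which 2.03% of all genes were higher and 2.6% lower in siDdb1. Of 11 annexins, proteins that bind membranes in the presence of calcium, 4 were lower in siDdb1 than in siSox2 and none higher, namely Anxa2 (-1.84), Anxa3 (-1.49), Anxa4 (-1.42) and Anxa5 (-1.62). Anxa3 read 9.23 and 8.87 in siDdb1, 10.14 and 10.94 in siSox2, and 7.70 and 8.05 in siNonTarget, so both knockdowns lay above the control. Anxa2 had adjusted p of 0.0714 without siSox2 replicate 2 and 0.0668 without siDdb1 replicate 2, and Anxa3 0.116, 0.177, 0.259 and 0.0763 without siDdb1 replicate 1, siDdb1 replicate 2, siSox2 replicate 2 and either siNonTarget array. Of 4 C/EBP transcription factor genes, Cebpa (-1.37) and Cebpb (-2.25) were lower, and Cebpb read 7.92 and 7.90 in siDdb1, 9.97 and 10.34 in siSox2, and 7.77 and 7.93 in siNonTarget. Cebpa had 0.0787, 0.059 and 0.0732 without siDdb1 replicate 1, siDdb1 replicate 2 and siSox2 replicate 2. Of 48 keratins, Krt7, Krt8 and Krt18 of simple epithelia were lower in siDdb1 and Krt12 (0.98) and Krt17 (1.46) higher, and the median was 0.07. The calls of Krt12 and Krt17 ended without siDdb1 replicate 1 (adjusted p 0.207 and 0.105) or siSox2 replicate 2 (0.206 and 0.232). Krt17 had 0.172 without siDdb1 replicate 2, and Krt12 had 0.163 without siSox2 replicate 1 and 0.0963 without either siNonTarget array. Rhox6 and its paralog Rhox9 were both lower (-3.37 and -3.0), with near-equal levels on every array, and shared hybridisation between them was not tested. Rhox9 had an adjusted p of 0.059 without siDdb1 replicate 1.

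Of 3 D-type cyclins, which drive the passage through G1, Ccnd1 (1.22) and Ccnd2 (2.53) were higher in siDdb1. Ccnd1 read 10.77 and 10.82 in siDdb1, 9.70 and 9.46 in siSox2, and 10.82 and 10.95 in siNonTarget, so the siSox2 arrays alone stood low, and its adjusted p was 0.0501 without siSox2 replicate 2. Of 27 genes of the Notch pathway, by which neighbouring cells signal through membrane-bound ligands, 4 were higher and none lower in siDdb1. Jag1, a ligand, read 8.78 and 8.82 in siDdb1, 7.36 and 6.90 in siSox2, and 8.49 and 8.53 in siNonTarget (difference 1.67), and Mfng, which adds sugars to Notch, differed by 1.07 with siNonTarget again near siDdb1. Mfng had 0.0889, 0.155, 0.198 and 0.0634 without siDdb1 replicate 1, siDdb1 replicate 2, siSox2 replicate 2 and either siNonTarget array. For Dll1 and Hes6, the other members of the 4, siDdb1 stood above the control. Against siNonTarget, Hes6 passed in siDdb1 (limma adjusted p = 0.0448) and Dll1 did not (0.25). Of 19 Wnt ligand genes, Wnt5a was higher (2.01) and Wnt7b lower (-1.31) in siDdb1, the second with an adjusted p of 0.0754 without siSox2 replicate 2. On the X chromosome 23 of 617 measured genes were higher and 23 lower, 3.73% each, against 2.03% and 2.6% of all genes. Other chromosomes held near shares, such as 3.43% higher on chromosome 14 and 3.54% lower on chromosome 8.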
